A study of Sus scrofa with 6 samples.

Results

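Glucocorticoid and stress axis genes were followed in the brain of wild boars and domestic pigs. The set held 9 genes: the receptors NR3C1 and NR3C2, the corticotropin-releasing hormone (CRH) genes CRH, CRHBP and CRHR1, and the glucocorticoid-induced genes FKBP5, SGK1, ZBTB16 and TSC22D3. They were chosen by name, with earlier results of these data known. Of the 9, 8 were found among the 21280 protein-coding genes of the table. TSC22D3 was not analysed here. The libraries came from 3 wild boars, labelled brain, and from 3 pigs of the Rongchang breed, a Chinese domestic pig, labelled cerebrum and re-analysed from an earlier deposit. Every animal was a 2-year-old female per the labels, and the prefrontal cortex appears in the title of the series. No treatment or stressor is given in the labels, nor the time of day or manner of sampling. Breed, source project and labelled tissue separate the same libraries, so their shares in any difference cannot be told apart.

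Glucocorticoids are steroid hormones of the adrenal cortex. In stress, CRH from the hypothalamus drives the pituitary, which drives the adrenal gland, and the hormone acts back on the brain through the glucocorticoid receptor (NR3C1) and the mineralocorticoid receptor (NR3C2). Bound receptors move to the nucleus and switch target genes on or off, and one of the induced genes, FKBP5, encodes a co-chaperone that lowers the receptor's affinity for hormone, a short negative feedback loop. In the cerebral cortex, CRH and its binding protein are made mainly by subsets of inhibitory interneurons.

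Levels are given as TPM, a transcript abundance scaled for gene length and for the total of each library, so levels of different genes can be set side by side. The protein-coding TPM summed to between 17.2% and 40.9% of the full TPM scale per library, lowest in wild boar 2 and highest in domestic pig 3. Each value is therefore given as deposited and after rescaling by a median-ratio factor per library, between -0.79 in wild boar 2 and 0.52 in domestic pig 2 on the log2 scale. Rescaling moved the median log2 fold change of the 11752 tested genes from -0.41 to 0.01. Differences are wild boar minus domestic pig on log2(TPM + 1), tested with limma, with p-values adjusted by Benjamini-Hochberg over all tested genes and a threshold of 0.05. Genes were tested when they reached 1 TPM in at least 3 libraries, and all 8 genes found did so. The deposited TPM keep no read depth, so no counting interval can be given. In bulk tissue, fewer cells of a type and less RNA per cell cannot be told apart.

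On rescaled TPM, 2 of the 8 genes were higher in wild boar, SGK1 and CRHBP, and 0 were lower. Among all tested genes, 8.88% were higher and 10.7% were lower by the same rule, 19.5% in either direction. On deposited TPM, limma called 0 of the 8, against 1.60% of all tested genes in either direction, 0.136% higher and 1.46% lower. Before adjustment, limma p was under 0.05 for NR3C1 on deposited TPM, and for NR3C1, SGK1, ZBTB16 and CRHBP on rescaled TPM. The all-gene share at that level was not counted, so this does not stand as a result about the 8 genes. The median log2 difference of the 8 genes was 0.29 rescaled, beside 0.01 over all tested genes, and -0.13 deposited, beside -0.41. The groups' rescaled values did not overlap for SGK1, ZBTB16 and CRHBP, all higher in wild boar, and for NR3C1, lower in wild boar; 19.6% of all tested genes were higher and 22.1% lower without overlap. In the deposited values only CRHR1 separated the groups, lower in wild boar, as did 17.1% of all tested genes, while 0.408% separated in the other direction.

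**Figure D1:**
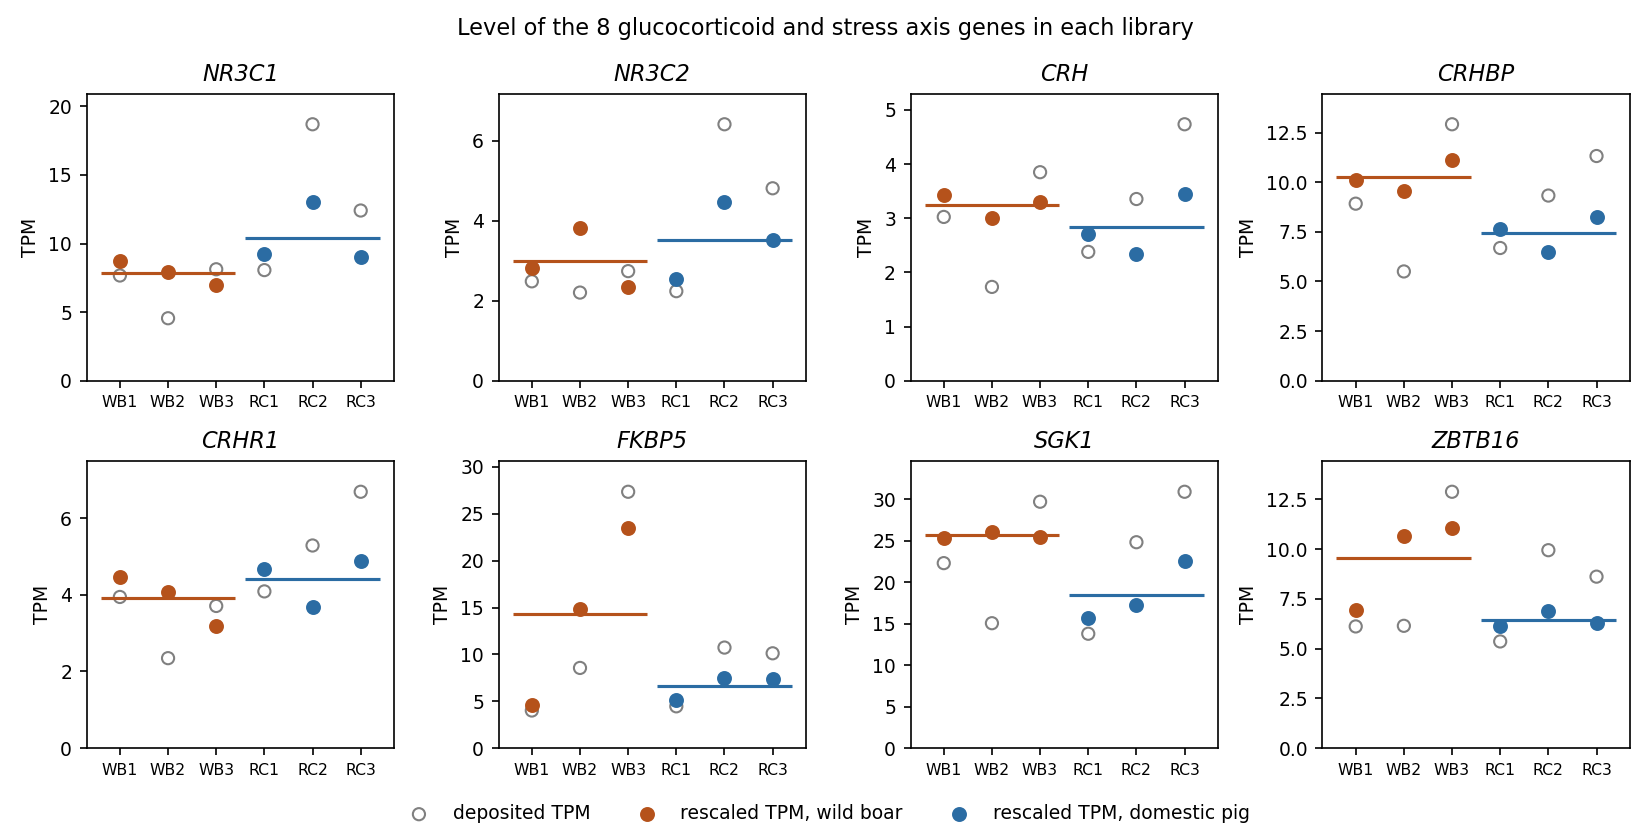
TPM (vertical axes, each from 0) of the 8 genes in wild boar libraries WB1 to WB3 and domestic pig libraries RC1 to RC3. Open circles are deposited values, filled circles rescaled values, and horizontal lines the group means of rescaled values; FKBP5 runs from 4.56 to 23.5 TPM among the wild boars, while SGK1 stays between 25.3 and 26.1 TPM in the same libraries.

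NR3C1 (ENSSSCG00000014401), the glucocorticoid receptor, was present in every library. Its deposited level was 7.67, 4.55 and 8.13 TPM in wild boar 1 to 3 and 8.07, 18.7 and 12.4 TPM in domestic pig 1 to 3. Rescaled, it was 8.70, 7.90 and 6.98 TPM in wild boar and 9.20, 13.0 and 9.05 TPM in domestic pig. On the rescaled scale every wild boar lay below every domestic pig, but wild boar 1 and domestic pig 3 were close neighbours and domestic pig 2 stood above the rest. The group means were 7.86 ± 0.862 and 10.4 ± 2.24 rescaled TPM (SD, n = 3 each). The rescaled log2 difference was -0.35 (SE 0.15; 95% interval -0.70 to -0.01; limma adjusted p = 0.127) and did not pass the test. On deposited TPM it was -0.82 (SE 0.41; limma adjusted p = 0.272).

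NR3C2 (ENSSSCG00000037766), the mineralocorticoid receptor, binds cortisol with higher affinity than NR3C1 does. It was measured at 2.48, 2.20 and 2.74 deposited TPM in wild boar and at 2.24, 6.41 and 4.81 in domestic pig. Rescaled levels were 2.82, 3.82 and 2.35 TPM in wild boar and 2.55, 4.46 and 3.51 TPM in domestic pig. The groups overlapped on both scales, with domestic pig 2 highest on each. Rescaled, the log2 difference was -0.17 (SE 0.19; 95% interval -0.59 to 0.26; limma adjusted p = 0.548), and the deposited one was -0.58 (SE 0.35; limma adjusted p = 0.351).

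Both receptors can be compared within a library, where the scaling cancels. The ratio of NR3C2 to NR3C1 was 0.324, 0.484 and 0.337 in wild boar, against 0.277, 0.343 and 0.388 in domestic pig, so the glucocorticoid receptor transcript was the more abundant in all 6 libraries. The ratios overlapped, with a log2 difference of 0.17 (exact two-sided permutation p = 0.6; 0.6 adjusted over the 4 ratios computed). This ratio turned to a difference of -0.01 without wild boar 2.

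CRH (ENSSSCG00000006215) encodes the releasing hormone itself. Its deposited level was 3.02, 1.73 and 3.85 TPM in wild boar and 2.38, 3.35 and 4.73 TPM in domestic pig. Rescaled, wild boar had 3.43, 3.00 and 3.31 TPM and domestic pig 2.71, 2.33 and 3.45 TPM. The groups overlapped on both scales, and domestic pig 3 was the highest library on each. The log2 difference after rescaling was 0.16 (SE 0.13; 95% interval -0.14 to 0.45; limma adjusted p = 0.417), against -0.22 (SE 0.35; adjusted p = 0.718) as deposited.

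CRHBP (ENSSSCG00000014093) encodes the secreted protein that binds CRH and keeps it from its receptors. As deposited it was 8.92, 5.50 and 12.9 TPM in wild boar and 6.69, 9.33 and 11.3 TPM in domestic pig, with full overlap. Rescaled it was 10.1, 9.55 and 11.1 TPM in wild boar and 7.63, 6.49 and 8.26 TPM in domestic pig, with every wild boar above every domestic pig. The rescaled means were 10.3 ± 0.784 and 7.46 ± 0.898 TPM (SD, n = 3 each). The rescaled log2 difference of 0.42 (SE 0.12; 95% interval 0.15 to 0.68) passed the test at a limma adjusted p of 0.0418. The deposited difference was -0.04 (SE 0.41; adjusted p = 0.962), so the call was present on the rescaled scale alone, and there its adjusted p ran from 0.0389 to 0.126 over 13 other settings and missed the threshold in 9 of them.

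CRHR1 (ENSSSCG00000017313), the main CRH receptor of the cortex and pituitary, had deposited levels of 3.94, 2.35 and 3.71 TPM in wild boar and 4.09, 5.29 and 6.69 TPM in domestic pig. Every wild boar was below every domestic pig on that scale, though wild boar 1 and domestic pig 1 nearly met. Rescaled levels were 4.47, 4.07 and 3.18 TPM in wild boar and 4.67, 3.67 and 4.88 TPM in domestic pig, and these overlapped. The log2 difference was -0.14 rescaled (SE 0.14; 95% interval -0.46 to 0.18; limma adjusted p = 0.504) and -0.55 deposited (SE 0.37; adjusted p = 0.398).

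Set against CRH in the same library, the binding protein and the receptor lay on opposite sides. CRHBP stood at 2.95, 3.18 and 3.36 times CRH in wild boar and at 2.81, 2.78 and 2.39 times in domestic pig. CRHR1 stood at 1.30, 1.36 and 0.963 times CRH in wild boar and at 1.72, 1.58 and 1.41 times in domestic pig. Neither pair of ranges overlapped: wild boar had the higher CRHBP to CRH ratio and the lower CRHR1 to CRH ratio in 3 of 3 libraries. The log2 differences were 0.25 and -0.39, each with an exact two-sided permutation p of 0.1, the smallest that 3 against 3 libraries allow, and 0.2 after adjustment over the 4 ratios. Both fail a threshold of 0.05, which this design cannot reach, and both share the CRH value as denominator.

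**Figure D2:**
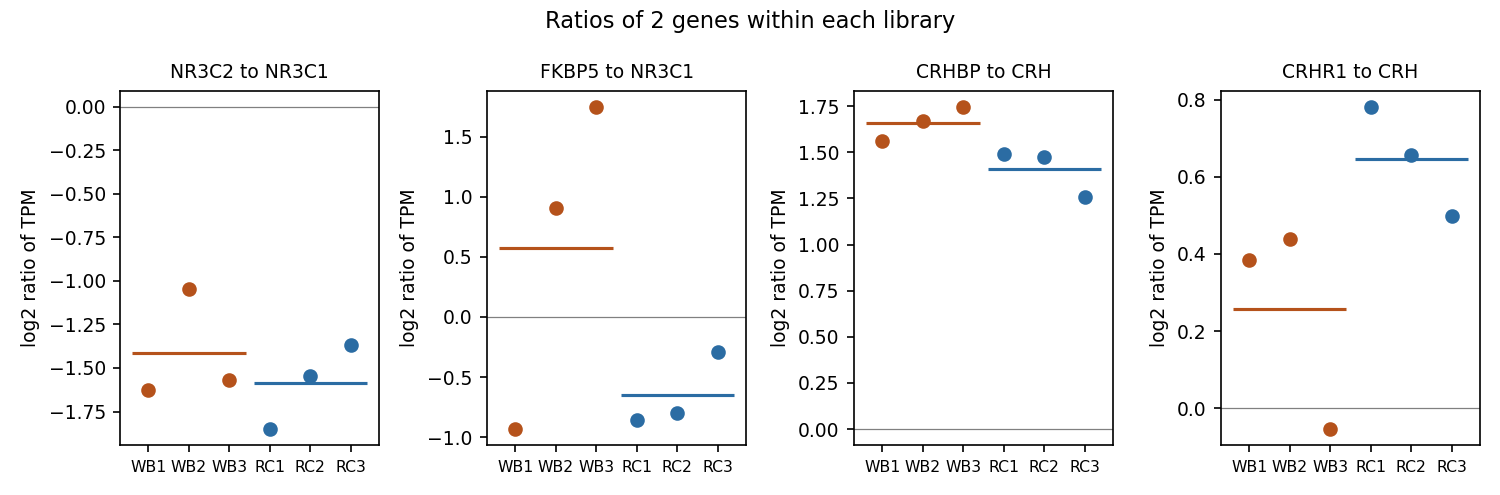
Log2 ratio of the TPM of 2 genes within each library (vertical axes), for wild boar WB1 to WB3 and domestic pig RC1 to RC3, with lines at the group means. The CRHBP to CRH and CRHR1 to CRH ratios do not overlap between the groups, and the FKBP5 to NR3C1 ratio spreads from 0.524 to 3.37 among the wild boars before taking the log.

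Of the rest of the CRH system, CRHR2, the second CRH receptor, was at 1.05, 2.40 and 1.67 rescaled TPM in wild boar and at 1.27, 1.58 and 1.44 TPM in domestic pig (log2 difference 0.13, SE 0.18; limma adjusted p = 0.635). The urocortin gene UCN2, a related ligand, was listed at 0 in all 6 libraries. Markers of the hypothalamus, where the CRH neurons of the endocrine axis lie, were all under the filter: their rescaled TPM summed to between 0.875 and 2.95 in wild boar and between 0.882 and 1.06 in domestic pig, and OXT was listed at 0 in every library. Markers of GABAergic interneurons, the main CRH and CRHBP producing cells of the cortex, summed to between 208 and 252 rescaled TPM in wild boar and between 176 and 258 in domestic pig, and 0 of the 7 tested passed the test in either direction. Within that list SLC32A1 lay above in wild boar without overlap (0.29, limma adjusted p = 0.0947), SST differed by 0.38 (adjusted p = 0.175) and GAD2 lay below without overlap (-0.27, adjusted p = 0.0953). Their part in the CRHBP difference was not tested.

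FKBP5 (ENSSSCG00000001549), the receptor co-chaperone and feedback target, was the most variable of the 8 genes. Its deposited level was 4.02, 8.56 and 27.4 TPM in wild boar 1 to 3 and 4.46, 10.7 and 10.1 TPM in domestic pig. Rescaled, it was 4.56, 14.8 and 23.5 TPM in wild boar and 5.09, 7.46 and 7.39 TPM in domestic pig. Wild boar 1 lay below every domestic pig and wild boar 2 and 3 lay above all of them. The highest wild boar was 5.15 times the lowest, while the domestic pigs spread 1.46-fold. The log2 SD among the wild boars was 1.10, a spread that 0.221% of all tested genes exceeded and beside an all-gene median of 0.13. The rescaled log2 difference was 0.77 (SE 0.45; 95% interval -0.26 to 1.81; limma adjusted p = 0.251), and the deposited one was 0.31 (SE 0.41; adjusted p = 0.664). Wild boar 3 carried much of the rescaled value, which was 0.31 (adjusted p = 0.61) without it, and wild boar 1 held it down, since it was 1.39 (adjusted p = 0.0196) without that library.

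The ratio of FKBP5 to NR3C1 within each library was 0.524, 1.88 and 3.37 in wild boar, in the order of FKBP5 itself. In domestic pig it was 0.553, 0.574 and 0.816, highest in domestic pig 3, whereas FKBP5 was highest in domestic pig 2. The log2 difference of 1.23 did not separate the groups (exact two-sided permutation p = 0.4; 0.533 adjusted over 4 ratios). Among 10511 other tested genes with a symbol, the 2 whose rescaled profile over the 6 libraries lay nearest to that of FKBP5 were CD163 and PDK4. The root-mean-square distance was 0.25 log2 units for CD163 and 0.31 for PDK4, beside 0.76 for the size of FKBP5's own variation. CD163, a scavenger receptor of macrophages that glucocorticoids are known to induce, measured 0.723, 3.20 and 3.995 rescaled TPM in wild boar and 1.04, 0.948 and 0.998 TPM in domestic pig. PDK4, a kinase that restrains pyruvate oxidation and a listed glucocorticoid target, measured 10.8, 34.9 and 47.4 TPM in wild boar and 16.6, 29.4 and 24.8 TPM in domestic pig. Both were lowest in wild boar 1 and highest in wild boar 3, as FKBP5 was, and their choice by likeness to FKBP5 favours such a shared order. The likeness is a description over 6 libraries from 6 animals, and for both genes the groups overlapped.

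SGK1 (ENSSSCG00000021443), a serine/threonine kinase that regulates ion channels and transporters and is induced by both receptors, had the highest level of the 8 genes in both groups. Its deposited level was 22.3, 15.1 and 29.7 TPM in wild boar and 13.8, 24.8 and 30.9 TPM in domestic pig, with full overlap. Rescaled, it was 25.3, 26.1 and 25.5 TPM in wild boar and 15.7, 17.3 and 22.5 TPM in domestic pig. The wild boars were all higher and nearly equal, with a 1.03-fold range, and 97.3% of all tested genes had a larger spread among them. Group means were 25.6 ± 0.427 and 18.5 ± 3.57 rescaled TPM (SD, n = 3 each). The rescaled log2 difference of 0.46 (SE 0.14; 95% interval 0.15 to 0.78) passed the test at a limma adjusted p of 0.0466. The deposited difference was -0.03 (SE 0.42; adjusted p = 0.974), and the rescaled adjusted p ran from 0.0247 to 0.138 over 13 other settings, missing the threshold in 9.

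ZBTB16 (ENSSSCG00000030095), a zinc-finger transcription factor that glucocorticoids induce in many tissues, was deposited at 6.12, 6.15 and 12.9 TPM in wild boar and at 5.36, 9.95 and 8.62 TPM in domestic pig. Rescaled, it was 6.94, 10.7 and 11.1 TPM in wild boar and 6.12, 6.91 and 6.29 TPM in domestic pig. The rescaled groups did not overlap, but wild boar 1 and domestic pig 2 nearly met. The rescaled log2 difference was 0.48 (SE 0.16; 95% interval 0.11 to 0.86; limma adjusted p = 0.0714) and missed the threshold. Without wild boar 1 it was 0.68 with an adjusted p of 0.0245. The deposited difference was 0.03 (SE 0.40; adjusted p = 0.976).

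**Figure D3:**
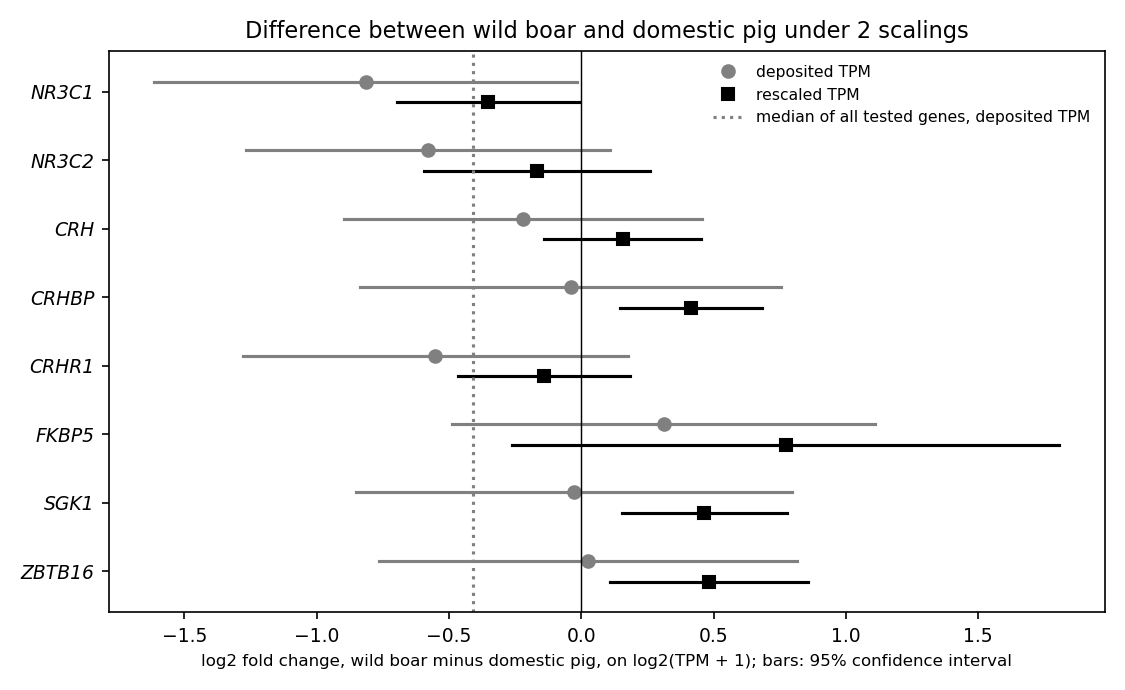
Log2 difference, wild boar minus domestic pig (horizontal axis), of the 8 genes (vertical axis) on deposited TPM (grey circles) and rescaled TPM (black squares), with 95% confidence intervals from limma. The dotted line marks the all-gene median of deposited TPM at -0.41; the rescaled intervals of SGK1, CRHBP and ZBTB16 lie above 0 and that of NR3C1 lies just below it.

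In order of rescaled group means, wild boar ran SGK1, FKBP5, CRHBP, ZBTB16, NR3C1, CRHR1, CRH and NR3C2. In that order only SGK1 and FKBP5, and NR3C1 and CRHR1, were neighbours whose values did not overlap. Domestic pig ran SGK1, NR3C1, CRHBP, FKBP5, ZBTB16, CRHR1, NR3C2 and CRH, with no overlap between SGK1 and NR3C1, between NR3C1 and CRHBP, and between ZBTB16 and CRHR1. The glucocorticoid receptor thus took the second place in domestic pig and the fifth in wild boar. The genes nearest in rescaled profile were RALGPS1 and MTNAP1 for NR3C2, POP7 and GNAZ for CRHBP, PGLS and AIMP2 for SGK1, and NRSN1 and PIK3AP1 for ZBTB16. Their distances were between 0.04 and 0.09 log2 units over the 6 libraries.

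The other glucocorticoid targets gave a wider view of the same readout. Their list was chosen with earlier results of these data known, so the counts are a description. Of 30 listed targets 26 were in the table and 23 were tested, 20 of them besides FKBP5, SGK1 and ZBTB16. On rescaled TPM 9 of these 20 were higher in wild boar and 0 were lower, beside 8.88% higher and 10.7% lower among all tested genes. The same 9 lay above in wild boar without overlap, and 1 target, PIK3R1, lay below without overlap (-0.30, SE 0.13; limma adjusted p = 0.123). Among all tested genes 19.6% lay above and 22.1% below without overlap. The median log2 difference of the 20 targets was 0.57, beside 0.01 over all tested genes. On deposited TPM limma called 1 of the 20, CEBPD, beside 0.136% higher among all tested genes, and the median was 0.14 beside -0.41. The 9 genes were PER1, KLF15, CEBPB, CEBPD, ERRFI1, DDIT4, NFKBIA, ARRDC2 and TXNIP. Several of them are also induced by cytokines, hypoxia, nutrients or the circadian clock, so the list is not particular to the hormone.

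CEBPD, a transcription factor of the acute-phase response, had the largest difference of the named targets. It measured 4.50, 6.50 and 6.30 rescaled TPM in wild boar and 0.937, 1.23 and 0.935 TPM in domestic pig, a log2 difference of 1.72 (SE 0.14; limma adjusted p = 0.00153). As deposited it was 3.97, 3.75 and 7.33 TPM in wild boar and 0.822, 1.77 and 1.28 TPM in domestic pig, without overlap, and the difference was 1.37 (SE 0.33; adjusted p = 0.0051). The deposited call was lost in 6 of 10 other settings: with no filter on low values (limma adjusted p = 0.135), with the replicate block (0.0898), and when domestic pig 3 (0.288), domestic pig 2 (0.057), wild boar 1 (0.0701) or wild boar 3 (0.0509) was left out. Of the 20 targets, CEBPD was the only one with every wild boar above every domestic pig on both scales.

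NFKBIA, the inhibitor that holds NF-kappaB in the cytoplasm, measured 15.6, 18.7 and 18.4 rescaled TPM in wild boar and 5.71, 7.24 and 8.48 TPM in domestic pig (log2 difference 1.20, SE 0.14; limma adjusted p = 0.00431). TXNIP, the thioredoxin-binding protein that limits glucose uptake, measured 46.2, 40.9 and 42.2 TPM in wild boar and 20.9, 21.4 and 21.0 TPM in domestic pig (1.00, SE 0.10; adjusted p = 0.00274). In both genes every wild boar was well above every domestic pig, with NFKBIA spread more widely among the domestic pigs than TXNIP. DDIT4, an inhibitor of mTORC1 signalling, measured 19.6, 24.2 and 23.1 TPM in wild boar and 12.8, 10.6 and 9.64 TPM in domestic pig (0.96, SE 0.13; adjusted p = 0.00593). ERRFI1, a feedback inhibitor of the EGF receptor, differed by 0.77 (SE 0.11; adjusted p = 0.00623). CEBPB, a partner of CEBPD, differed by 0.78 (SE 0.12; adjusted p = 0.00729). These 6 genes passed the test in each of 13 other settings of the rescaled fit, where between 6 and 9 of the 20 targets were called, all higher in wild boar.

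Other well-known targets did not pass. DUSP1, a phosphatase of MAP kinases and an immediate-early gene, measured 27.5, 11.04 and 13.4 rescaled TPM in wild boar and 12.3, 9.68 and 9.77 TPM in domestic pig (0.57, SE 0.28; limma adjusted p = 0.181). It was named after its values were seen: wild boar 1, the lowest wild boar for FKBP5 and PDK4, was the highest library for DUSP1. PDK4 differed by 0.19 (SE 0.46; adjusted p = 0.797). Over the 23 tested targets, the median deviation from each gene's mean over the libraries was 0.08, 0.38 and 0.33 log2 units in wild boar 1 to 3 and -0.38, -0.22 and -0.24 in the domestic pigs, beside 0.00 in each library over all tested genes. Wild boar 1 was thus the lowest of the wild boars, and it was the lowest of the 3 for 16 of the 23 targets, beside 30% of all tested genes. It lay above every domestic pig by this median.

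**Figure D4:**
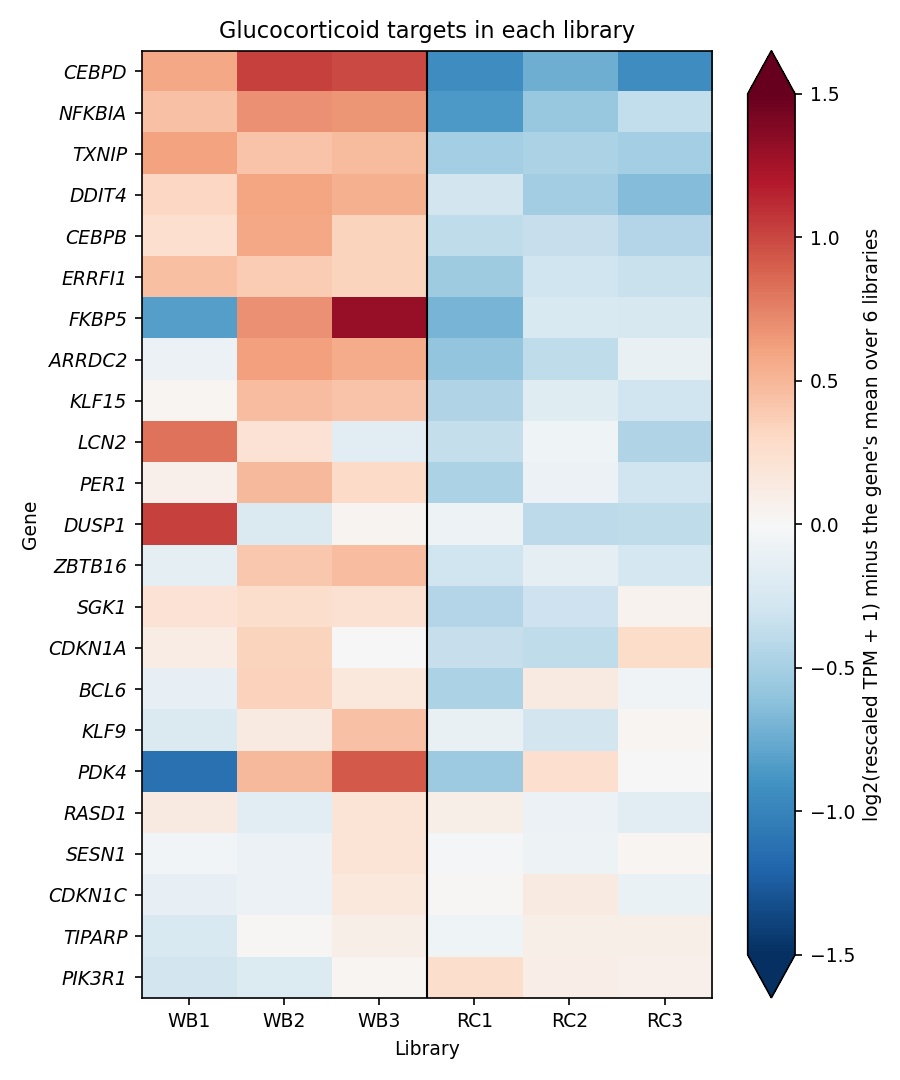
Deviation of log2(rescaled TPM + 1) from each gene's mean over the 6 libraries (colour scale, cut at ±1.5) for the 23 tested glucocorticoid targets (rows, ordered by the difference of group means) in wild boar WB1 to WB3 and domestic pig RC1 to RC3. The upper rows are high in all wild boars, while FKBP5 and PDK4 are low in wild boar 1 and high in wild boar 3.

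Genes that act on the receptor before it reaches its targets were counted in the same way. The receptor is folded and held by HSP90 complexes, and of 11 tested chaperones and immunophilins 1 was higher on rescaled TPM and 0 were lower, near the 8.88% of all tested genes that were higher. It was STUB1, a ubiquitin ligase that marks chaperone clients for degradation, at 39.2, 41.6 and 37.6 TPM in wild boar and 29.6, 24.1 and 33.0 TPM in domestic pig (0.45, SE 0.13; limma adjusted p = 0.0474). That call was lost in 9 of 13 other settings, where the adjusted p ran from 0.0411 to 0.13 (0.089 with the replicate block). FKBP4, the immunophilin that exchanges with FKBP5 on the receptor complex, had a log2 difference of 0.13 (SE 0.13; adjusted p = 0.514). Of 12 tested co-regulators 2 were lower and 0 were higher, beside 10.7% lower among all tested genes, so neither count stands as a result about its list. NRIP1, a nuclear receptor co-repressor, measured 13.4, 11.3 and 14.4 TPM in wild boar and 18.1, 18.9 and 18.8 TPM in domestic pig (-0.49, SE 0.11; adjusted p = 0.0235). CREB1, the cAMP-responsive factor that drives CRH transcription, differed by -0.41 (SE 0.12; adjusted p = 0.0395). NRIP1 lost its call in 6 of 13 other settings (limma adjusted p 0.0239 to 0.0704; 0.0526 with the replicate block) and CREB1 in 9 of 13 (0.0354 to 0.113; 0.0683 with the replicate block). On deposited TPM limma called 0 genes of either list, and NRIP1 and CREB1 were at -0.96 and -0.88 with unadjusted p of 0.021 and 0.033.

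Steroid metabolism sets how much hormone meets the receptor. HSD11B1, which regenerates active glucocorticoid from its inactive form inside the cell, measured 10.46, 10.01 and 8.15 rescaled TPM in wild boar and 8.19, 9.21 and 11.5 TPM in domestic pig, a log2 difference of -0.01 (SE 0.14; 95% interval -0.33 to 0.32; limma adjusted p = 0.983). H6PD, which supplies the NADPH for that reaction, was the 1 of 3 tested genes of this list that was higher, beside 8.88% of all tested genes. With 3 genes tested, that count does not stand as a result about the list. H6PD measured 1.28, 1.35 and 1.19 TPM in wild boar and 0.57, 0.931 and 0.69 TPM in domestic pig (0.40, SE 0.11; limma adjusted p = 0.0428). It lost the call in 7 of the 10 other settings that tested it (limma adjusted p 0.0287 to 0.128; 0.0658 with the replicate block). HSD11B2, the inactivating enzyme, was under the filter. Of the other hormone genes of the axis 4 of 11 in the table were tested and 0 were called on either scale. STAR, the cholesterol carrier of steroid synthesis, was nearest at 0.41 (SE 0.15; adjusted p = 0.0876), with every wild boar above every domestic pig after rescaling.

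Several cell-type markers also differed between the groups. The counts called below stand beside 8.88% higher and 10.7% lower among all tested genes. On rescaled TPM red blood cell markers summed to between 448 and 1320 in wild boar and between 85.6 and 227 in domestic pig, and 4 of 4 were higher. Endothelial markers summed to between 26.3 and 37.8 against 18.7 to 21.7, with 1 of 6 (CLDN5) higher and TEK at -0.36 without overlap (limma adjusted p = 0.095). CLDN5 was the largest part of that sum in each library, at 13.43, 19.85 and 20.15 TPM in wild boar. In domestic pig it was at 7.63, 5.25 and 7.25 TPM. Mural cell and fibroblast markers summed to between 80.2 and 106 against 66.6 to 78.5, with 2 of 10 (ACTA2 and TAGLN) higher. RGS5 of that list lay lower in wild boar with overlap (-0.43, limma adjusted p = 0.135), while 9 of the 10 differences were above 0. Glutamatergic neuron markers summed to between 202 and 234 against 127 to 179, with 3 of 7 (SLC17A7, CAMK2A and NEUROD2) higher. CAMK2A was the largest part of that sum in each library. NEUROD6 (-0.60, adjusted p = 0.0507) and RORB (-0.35, adjusted p = 0.0527) lay lower in wild boar without overlap but missed the limma threshold. Astrocyte markers overlapped in sum, at 874 to 1220 against 964 to 1060 with 0 of 7 called. Within that list AQP4 lay below in wild boar without overlap (-0.62, limma adjusted p = 0.0731). Microglial sums also overlapped, at 52.8 to 107 against 60.2 to 81.3 with 1 of 7 (C1QA) higher. P2RY12 of the same list was at -0.66 with overlap (limma adjusted p = 0.0829). So did myelin sums overlap, at 1970 to 3150 against 2290 to 2780 with 3 of 8 (ERMN, ASPA and UGT8) lower. CNP (0.47, limma adjusted p = 0.0704) and MOG (0.21, limma adjusted p = 0.274) lay above in wild boar without overlap. The part of these markers in the differences of SGK1, CRHBP and the targets was not tested.

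Domestic pig 3 stood apart in markers of the striatum, which summed to 56.9 rescaled TPM at most in domestic pig and to 13.5 at most in wild boar, with PPP1R1B at 41.3 deposited TPM in that library. Without domestic pig 3, SGK1 had a rescaled log2 difference of 0.60 (limma adjusted p = 0.0247) and CRHBP 0.48 (adjusted p = 0.0498), and both passed the test. In the same fit 7 of the 20 other targets were called. SGK1 and CRHBP each missed the threshold when any of the other 5 libraries was left out.

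Circular RNAs (circRNAs), closed loops made by back-splicing of exons, gave another readout at the same loci. Of 11375 circRNAs, 7 lay within 3 of the 9 genes, 1 in NR3C1, 3 in NR3C2 and 3 in ZBTB16. Of the 6 tested, limma called 0, beside 0.134% called among 9709 tested circRNAs. At an unadjusted limma p under 0.05 there was 1 of the 6, beside 1408 of the 9709. That count does not stand as a result about these loci. The back-splice reads given are lower bounds recovered from the deposited TPM. A count of 0 allows up to 3 reads, for counting error only. Positions are as the authors deposited them, on a build that no source used here names.

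The NR3C1 circRNA (ssc_circ_11070) spanned chr2:144843116-144843394 on the minus strand. It was at 0.268 and 0.166 TPM in wild boar 1 and 2, at least 1 read each, and at 0 in the other 4 libraries, so it was not tested. The most abundant NR3C2 circRNA (ssc_circ_6893) spanned chr8:80630974-80638316 on the plus strand, at 0.517, 0.107 and 0.422 TPM in wild boar and 0.268, 0 and 0.0816 TPM in domestic pig. It held at least 6, 2 and 4 reads in wild boar and at least 4, 0 and 1 in domestic pig, and its log2 difference of 1.49 (SE 0.74; limma adjusted p = 0.366) did not pass the test. The most abundant ZBTB16 circRNA (ssc_circ_7911) spanned chr9:41738255-41768627 on the plus strand. It was at 0, 0.25 and 0 TPM in wild boar and 0.524, 0.313 and 0.128 TPM in domestic pig, with at least 5 reads in its highest library (-1.96, SE 0.78; unadjusted p = 0.0227, adjusted 0.25).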

How the data were processed

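The authors deposited TPM for 21280 protein-coding genes and for 11375 circRNAs, with 1 column per library and 0 unused columns of per-sample values. RNA was isolated with Trizol, depleted of ribosomal RNA and made into stranded libraries, per the labels' protocols. STAR 2.6.0c and BWA 0.7.17 appear in the submitters' processing notes, with no role stated. Which build, annotation, gene counter and circRNA caller the authors used is not given in the sources used here. Symbols were matched for 14821 gene identifiers.

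Both scalings were fitted with limma 3.58.1 (R 4.3.3) with a mean-variance trend on log2(TPM + 1), which understates changes of low genes, for genes at 1 TPM or more in at least 3 libraries. On deposited TPM limma pooled the variance fully across genes, so SE and p there come from the all-gene trend and not from the gene's own spread. Median-ratio factors used tested genes above 0 in all libraries. CircRNAs above 0 in at least 3 libraries were tested on log2(TPM + 0.045). Within-library ratios used exact permutation tests. The fits were tested on simulated data without library-wide scale differences, so the choice of scaling was not tested. Replicates are separate libraries, and the labels number animals without giving how they were sampled. The p-values therefore measure spread between these libraries, which on deposited gene TPM is the all-gene trend alone.

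The members and the gene lists were chosen with earlier results of these data known. Named were all members found, up to 6 called genes per pathway list by lowest p on rescaled TPM, the 2 genes nearest to each member in profile (for 3 members not reported here), and the circRNA of highest mean per member. CircRNAs were assigned by position to Sscrofa11.1 RefSeq genes (99.31% inside a gene, 47.24% after a shift of 1000000 bases), with starts counted from 1. Back-splice reads are the smallest whole numbers that give the deposited TPM ratios within a relative tolerance of 1e-05. Alternatives changed the pseudocount, filter, trend, scaling, replicate block and libraries.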

Additional observations from a re-analysis of the deposited data

How the results depend on the processing

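The 2 genes called on rescaled TPM became 0 with no filter on low values, with the replicate block, and with libraries scaled to an equal protein-coding sum with or without mitochondrial genes. Leaving out 1 library gave between 0 and 2; the 2 called without wild boar 1 were FKBP5 and ZBTB16. With a pseudocount of 0.1, no trend or quantile normalization 2 were called. On deposited TPM the 1 target called, CEBPD, became 0 with no filter and with the replicate block, and was between 0 and 1 when 1 library was left out. On deposited TPM, leaving out 1 library turned the direction of FKBP5 (-0.37 to 0.88), SGK1 (-0.35 to 0.22), ZBTB16 (-0.30 to 0.19), CRH (-0.41 to 0.010) and CRHBP (-0.31 to 0.24). The turned values were -0.37 and -0.04 for FKBP5, 0.22, 0.05 and 0.21 for SGK1, -0.30 and -0.20 for ZBTB16, 0.010 for CRH, and 0.24 and 0.12 for CRHBP. The ratio of NR3C2 to NR3C1 ran from -0.011 to 0.28. On rescaled TPM the 8 genes kept their direction in all 13 alternatives each. Why these calls were lost was not tested.

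Samples of the same number had correlations of 0.11, -0.07 and -0.16 in their deviations from the group means. Samples of unlike number had correlations from -0.15 to 0.23. With 3 libraries per group these values cannot decide whether the numbers pair the animals. The groups came from different source projects. The replicate block left 0 of the 8 genes called on both scalings.

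The deposited TPM keep no depth, and 3 libraries per group limit every test. No RefSeq promoter or protein sequence was used here, so the planned motif search was not run. The CRHBP to CRH and CRHR1 to CRH ratios cannot pass 0.05 in this design, and circRNA reads are known as lower bounds.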
